A study of Mus musculus with 8 samples.

Results

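The 7 genes described here, Pdgfrb, Notch3, Rgs5, Kcnj8, Abcc9, Higd1b and Cspg4, are markers in common use for pericytes, and were taken by symbol from 47517 gene symbols counted in the mouse inner ear at postnatal day 14. The samples were 4 libraries of mutant mice, heterozygous for a frameshift in the sequence of TRα1 (a thyroid hormone receptor that Thra encodes) with altered receptor function, and 4 libraries of wild-type littermates. No animal was treated, and the labels name neither strain nor sex. The labels give the tissue as inner ear, the series title names the cochlea, and neither says whether a library is 1 animal, 1 ear or a pool. P-values therefore measure the spread between these libraries, which may be partly technical.

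Pericytes are contractile and supporting cells that lie on capillaries within the basement membrane they share with the endothelium. Endothelial PDGF-B recruits them through the receptor PDGFRβ, and Notch signals from the endothelium help to keep them in place. In the cochlea they are dense along the capillaries of the stria vascularis and the spiral ligament, which serve the tissue that forms the endolymph. None of the 7 genes is restricted to pericytes: vascular smooth muscle expresses most of them, some fibroblasts express Pdgfrb, and oligodendrocyte precursors and immature cartilage express Cspg4. In RNA of a whole tissue, fewer cells of a type and less RNA per cell cannot be told apart.

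All 7 genes were detected in every library, and none differed between genotypes at the threshold used (0 of 7). The test was edgeR's quasi-likelihood test over 21392 genes, with a Benjamini-Hochberg adjusted p under 0.05 required for a call. Over all genes 1 was called higher (0.00467%) and 8 lower (0.0374%) in mutant libraries, or 0.0421% in either direction. At an unadjusted p under 0.05 the members also numbered 0 of 7, against 5.3% of all genes. By DESeq2 and limma-voom 0 of 7 passed as well, where these tools called 68 and 16 of the 21392 genes. Without wild-type replicate 2, a library that stood apart, the members again numbered 0 of 7 at an adjusted p (0.0549% of all genes) and 0 of 7 at an unadjusted p under 0.05 (3.16% of all genes). The log2 fold changes of mutant over wild-type ran from -0.00035 for Kcnj8 to 0.38 for Cspg4. Their median was 0.15, beside -0.0061 over all genes tested. The member median was 0.11 without wild-type replicate 2 and 0.25 without mutant replicate 2, so the 2 exclusions moved it in opposite directions. Positive values were found for 6 of the 7 members and for 48.3% of all genes. Since most members varied together between libraries, their signs are not 7 separate observations.

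The libraries held between 18930841 and 23064578 counts, and levels are given as CPM, the usual scaling of counts by library size. A floor of 3 counts corresponded to 0.130 to 0.158 CPM. Such floors cover counting error only. Haemoglobin genes took 0.781% to 1.90% of counts in mutant libraries and 1.29% to 4.88% in wild-type libraries, the highest share being that of wild-type replicate 2. Replicates 2 and 3 of both genotypes carry 2 numbers in their titles and replicates 1 and 4 carry 1, with no statement of what the numbers mean, and values within each form of title are given as for a batch. Of 10 genes typical of the inner ear, all 10 had counts in every library, and their summed level was 2109 to 3984 CPM in mutant and 2874 to 3829 CPM in wild-type libraries. Thra itself stood at 137, 113, 126 and 132 CPM in mutant replicates 1 to 4, against 114, 114, 102 and 98.4 CPM in wild-type replicates 1 to 4, with a log2 fold change of 0.24 (SE 0.089) and an edgeR adjusted p of 0.924. The genotypes overlapped, and since counts by gene cannot show a frameshift, they are no check of the genotype labels.

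The promoter sequences shown are those of Rgs5, the most abundant member, of the neighbouring channel genes Kcnj8 and Abcc9, and of Cspg4, whose level was the most closely correlated with that of Abcc9. RefSeq's promoter table (GRCm38.p6, the assembly also named mm10) had entries for 5 of the 7 members, namely Rgs5, Kcnj8, Abcc9, Cspg4 and Notch3. Of each window of up to 250 bases before the gene's start, only the part free of exons in the GENCODE M21 annotation was kept. Capitals mark matches, on either strand, to any of 7 motifs: the thyroid hormone response half-site AGGTCA, the binding motif of the Notch effector RBPJ TGGGAA, the CCAAT box CCAAT, the GC box GGGCGG, the E-box CANNTG, the GATA motif AGATAA and the TATA box TATAAA. The windows are chr1:169655251-169655500 on the plus strand for Rgs5, chr6:142571615-142571864 on the minus strand for Kcnj8, chr6:142702316-142702524 on the minus strand for Abcc9 and chr9:56864854-56865032 on the plus strand for Cspg4.
Rgs5: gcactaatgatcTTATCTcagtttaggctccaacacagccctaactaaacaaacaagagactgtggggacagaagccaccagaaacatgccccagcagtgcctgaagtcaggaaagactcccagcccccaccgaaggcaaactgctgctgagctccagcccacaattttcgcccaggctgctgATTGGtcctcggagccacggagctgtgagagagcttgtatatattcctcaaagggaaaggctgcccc
Kcnj8: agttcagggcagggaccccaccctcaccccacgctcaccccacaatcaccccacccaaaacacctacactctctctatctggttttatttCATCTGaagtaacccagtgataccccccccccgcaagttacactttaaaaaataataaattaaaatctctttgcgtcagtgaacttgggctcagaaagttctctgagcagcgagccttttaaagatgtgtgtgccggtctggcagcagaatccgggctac
Abcc9: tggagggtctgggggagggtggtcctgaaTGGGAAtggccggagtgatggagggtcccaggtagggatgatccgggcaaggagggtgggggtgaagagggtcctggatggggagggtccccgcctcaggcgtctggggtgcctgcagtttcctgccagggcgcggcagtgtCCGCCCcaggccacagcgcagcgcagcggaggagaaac
Cspg4: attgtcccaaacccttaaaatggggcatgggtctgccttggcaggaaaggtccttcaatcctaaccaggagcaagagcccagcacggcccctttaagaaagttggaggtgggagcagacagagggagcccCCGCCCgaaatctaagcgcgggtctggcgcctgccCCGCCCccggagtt

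In these windows Rgs5 held 1 CCAAT box and 1 GATA motif, Kcnj8 held 1 E-box, and Abcc9 held 1 RBPJ motif and 1 GC box. Cspg4 held 2 GC boxes, and the window of Notch3 (250 bases, not printed) held 4. No 2 matches overlapped. Of 32851 RefSeq promoter windows, 33.8% held a CCAAT box, 9.99% a GATA motif, 66.2% an E-box and 32.7% a GC box over 250 bases. Over 209 bases 18.6% held the RBPJ motif and 26.5% a GC box, and over 179 bases 20.9% held a GC box. The half-site AGGTCA, present in 14.0% of windows of 250 bases, and TATAAA, present in 12.4%, had no match in the 5 windows. The windows of all promoters were cut to length but not cleared of exons. These matches are letters in a short window and are given as a description.

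Pdgfrb encodes PDGFRβ, the receptor tyrosine kinase through which PDGF-B attracts and sustains pericytes (ENSMUSG00000024620.11, chr18:61045150-61085061, plus strand, GRCm38). Its level was 139, 95.6, 124 and 123 CPM in mutant replicates 1 to 4, against 125, 88.0, 111 and 109 CPM in wild-type replicates 1 to 4. Replicate 2 was the lowest library of each genotype, and the genotypes overlapped. The means were 120 ± 18.2 CPM in mutant and 108 ± 15.4 CPM in wild-type libraries (SD, n = 4 each). The log2 fold change was 0.15 (SE 0.14, 95% interval -0.16 to 0.47, edgeR adjusted p = 1.0), or 0.893-fold to 1.38-fold as a ratio. It was 0.064 without wild-type replicate 2, 0.074 without mutant replicate 1, 0.25 without mutant replicate 2 and 0.24 without wild-type replicate 1.

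Notch3 encodes the Notch receptor of mural cells, the shared name of pericytes and vascular smooth muscle (ENSMUSG00000038146.8, chr17:32120820-32166852, minus strand). It stood at 24.6, 20.1, 27.4 and 28.6 CPM in mutant replicates 1 to 4, against 24.2, 21.2, 24.1 and 20.9 CPM in wild-type replicates 1 to 4. Mutant replicates 1, 3 and 4 were above every wild-type library, whereas mutant replicate 2 was below every one of them. The log2 fold change was 0.16 (SE 0.12, 95% interval -0.12 to 0.43, edgeR adjusted p = 0.993). It was 0.09 without mutant replicate 4 and 0.25 without mutant replicate 2. The antisense gene Gm17276 overlaps 488 bases (6.03%) of the exons of Notch3 and had 339 to 416 counts per library, and as no strand setting is stated, reads of the 2 genes in the overlap cannot be told apart.

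Rgs5 encodes a regulator that shortens signalling by G protein-coupled receptors and is among the most abundant pericyte transcripts (ENSMUSG00000026678.10, chr1:169655501-169695813, plus strand). Its level was 216, 143, 205 and 251 CPM in mutant replicates 1 to 4 and 237, 117, 208 and 172 CPM in wild-type replicates 1 to 4. Replicate 2 was again the lowest of each genotype, and the highest mutant and wild-type libraries lay close together. The means were 204 ± 44.7 CPM in mutant and 184 ± 51.6 CPM in wild-type libraries (SD, n = 4 each). The log2 fold change of Rgs5 was 0.15 (SE 0.23, 95% interval -0.39 to 0.68, edgeR adjusted p = 1.0). Without wild-type replicate 2 the value was -0.015, so that its sign rested on that library. It was 0.033 without mutant replicate 4, 0.29 without mutant replicate 2 and 0.30 without wild-type replicate 1.

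Kcnj8 and Abcc9 encode Kir6.1, the pore, and SUR2, the sulfonylurea receptor, of the vascular ATP-sensitive potassium channel, which relaxes mural cells when it opens. The genes are neighbours on chromosome 6, both on the minus strand and 16247 bases apart, with Kcnj8 at chr6:142564837-142571614 (ENSMUSG00000030247.9) and Abcc9 at chr6:142587862-142702315 (ENSMUSG00000030249.15). Kcnj8 stood at 8.30, 4.78, 6.88 and 7.09 CPM in mutant replicates 1 to 4, against 8.59, 5.20, 5.62 and 7.64 CPM in wild-type replicates 1 to 4. The means were 6.76 ± 1.46 and 6.76 ± 1.62 CPM in mutant and wild-type libraries (SD, n = 4 each), and the 95% interval of the log2 fold change was -0.50 to 0.50, or 0.707-fold to 1.41-fold. Mutant replicate 2 was the lowest library and wild-type replicate 1 the highest. The gene had 99 to 189 counts per library. With 1 library left out its value lay between -0.11 (without mutant replicate 1) and 0.15 (without wild-type replicate 1).

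Abcc9 stood at 61.6, 56.1, 74.7 and 61.2 CPM in mutant replicates 1 to 4, against 60.1, 33.6, 58.7 and 53.4 CPM in wild-type replicates 1 to 4. Mutant replicates 1, 3 and 4 were above every wild-type library, and wild-type replicate 2 was far below all others. The means were 63.4 ± 7.91 CPM in mutant and 51.4 ± 12.2 CPM in wild-type libraries (SD, n = 4 each). The log2 fold change of Abcc9 was 0.30 (SE 0.18, 95% interval -0.11 to 0.71, edgeR adjusted p = 0.960). Without wild-type replicate 2 the log2 fold change was 0.14, and without wild-type replicate 1 it was 0.40. An antisense gene, 5330439B14Rik, overlaps 158 bases (1.89%) of its exons and had 0 counts in 7 libraries and 37 in mutant replicate 4.

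Higd1b, whose product carries a hypoxia-induced gene domain and which marks pericytes in single-cell atlases of mouse organs, was the least counted member (ENSMUSG00000020928.14, chr11:102835849-102838040, plus strand). It had 35, 31, 28 and 28 counts in mutant replicates 1 to 4 and 24, 28, 33 and 26 counts in wild-type replicates 1 to 4. The corresponding levels were 1.36 to 1.54 CPM in mutant and 1.11 to 1.72 CPM in wild-type libraries, so the mutant range lay inside the wild-type one. Its log2 fold change was 0.08 (SE 0.22, 95% interval -0.42 to 0.57), and lay between -0.00042 without wild-type replicate 1 and 0.20 without wild-type replicate 3. In contrast to the other members, Higd1b was not low in replicate 2 of either genotype, at 97.7% of the mean of the other mutant libraries and 110% of that of the other wild-type libraries.

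Cspg4 encodes NG2, a chondroitin sulfate proteoglycan on the surface of pericytes (ENSMUSG00000032911.6, chr9:56865033-56899870, plus strand). It stood at 19.7, 20.1, 26.8 and 20.9 CPM in mutant replicates 1 to 4, against 17.9, 10.6, 21.6 and 17.4 CPM in wild-type replicates 1 to 4. Mutant replicate 3 was the highest and wild-type replicate 2 the lowest, and wild-type replicate 3 was above 3 of the mutant libraries. The means were 21.9 ± 3.33 CPM in mutant and 16.9 ± 4.62 CPM in wild-type libraries (SD, n = 4 each). Its log2 fold change of 0.38 (SE 0.21, 95% interval -0.093 to 0.84, edgeR adjusted p = 0.939) was the highest of the 7. The value was 0.21 without wild-type replicate 2 and 0.52 without wild-type replicate 3.

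**Figure D1:**
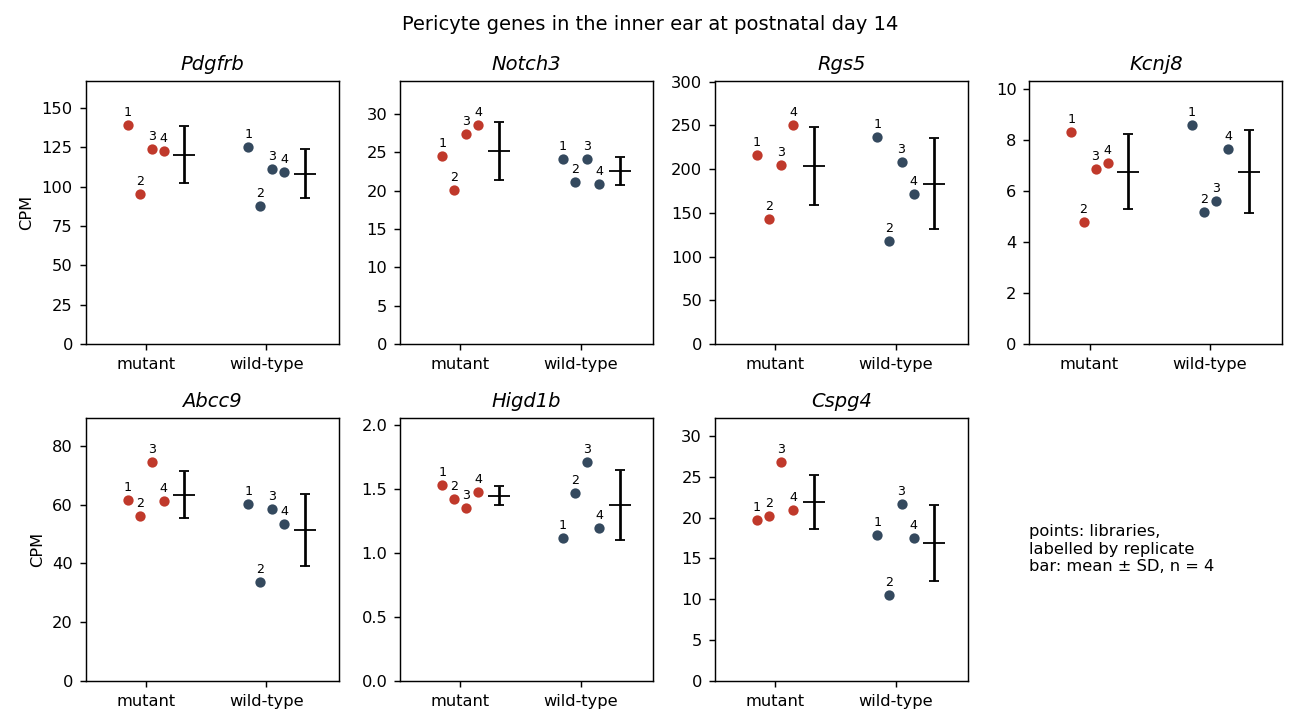
Level of each pericyte gene in CPM (y axis, from 0, own scale per panel) in the 4 mutant and the 4 wild-type libraries, numbered by replicate, with the mean and SD beside them (n = 4 each). The genotypes overlap in all 7 panels, and wild-type replicate 2 is the lowest library for Pdgfrb, Rgs5, Abcc9 and Cspg4.

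For 0 of the 7 members did the ranges of the genotypes separate, against 2.69% of all genes tested. The 95% intervals of all 7 log2 fold changes contained 0, and they reached at most 1.80-fold higher (Cspg4) and at lowest 0.707-fold (Kcnj8). These intervals bound the differences that the data allow and do not show that the genotypes are alike.

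**Figure D2:**
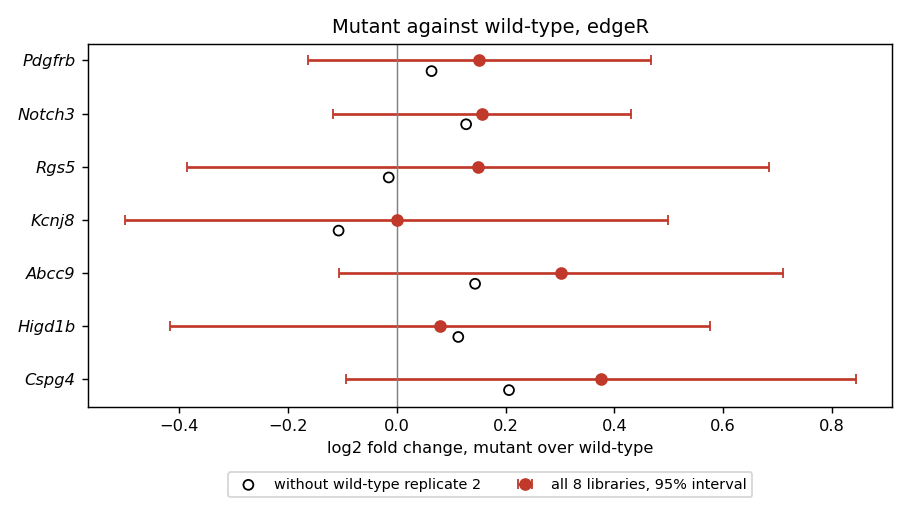
Log2 fold change of mutant over wild-type (x axis) for the 7 pericyte genes, with filled points and 95% intervals from edgeR on all 8 libraries and open points for the fit without wild-type replicate 2. All 7 intervals contain 0, and the open point lies to the left of the filled one for every gene but Higd1b.

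The level of each member also varied between single libraries. From the lowest to the highest library the ratio was 1.42 for Notch3, 1.54 for Higd1b, 1.58 for Pdgfrb, 1.80 for Kcnj8, 2.13 for Rgs5, 2.22 for Abcc9 and 2.54 for Cspg4. The low end was wild-type replicate 2 for 4 members and mutant replicate 2 for 2 members. Mutant replicate 2 held 64.0% of the mean Rgs5 level of the other mutant libraries, 64.4% for Kcnj8, 74.3% for Pdgfrb and 75.0% for Notch3, but 85.3% for Abcc9 and 89.6% for Cspg4. In wild-type replicate 2 the order was different, with 55.6% of the mean of the other wild-type libraries for Cspg4, 57.1% for Rgs5, 58.6% for Abcc9, 71.4% for Kcnj8, 76.4% for Pdgfrb and 91.8% for Notch3. The high end was shared out among 5 libraries.

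**Figure D3:**
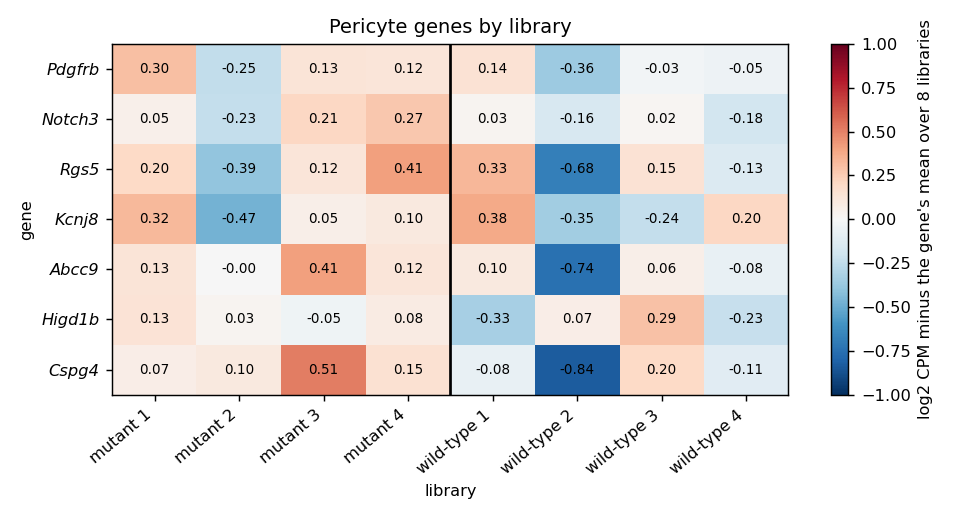
Log2 CPM of each pericyte gene (rows) in each library (columns, mutant left of the line, wild-type right of it), minus the gene's mean over the 8 libraries. Wild-type replicate 2 is 0.84 below the mean for Cspg4 and 0.74 below it for Abcc9, and mutant replicate 2 is 0.47 below it for Kcnj8.

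Other tissue compartments were low or high in the same libraries. Wild-type replicate 2 had the lowest summed level of 18 endothelial genes (526 CPM, against 626 to 707 CPM in the other wild-type libraries), of 8 fibroblast genes (5492 against 9219 to 10660 CPM) and of 5 cartilage genes (878 against 2004 to 3209 CPM). It had the highest summed level of 5 haemoglobin and erythroid genes (49442 against 12810 to 25401 CPM). Mutant replicate 2 likewise had the lowest endothelial (544 against 661 to 756 CPM), fibroblast (7998 against 10024 to 14600 CPM) and cartilage level (1525 against 3136 to 5464 CPM) among mutant libraries. The part of these compartments in the low pericyte values was not tested. The summed level of 6 genes of mucosal epithelium, a tissue of the airway and middle ear, was 2.28 to 4.08 CPM in mutant and 184 to 622 CPM in wild-type libraries, the highest being wild-type replicate 2. This list did separate the genotypes: all 6 genes were lower in mutant libraries without overlap, against 2.69% of all genes in either direction. Of the 6, 4 were called lower, among only 8 genes (0.0374%) called lower in the whole table.

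Correlations of log2 CPM across the 8 libraries were computed for all 21 pairs of members. Among the 15 pairs without Higd1b, Pearson's r was positive for 15 and ran from 0.25 to 0.97, with a median of 0.72. The 6 pairs with Higd1b lay between -0.51 and 0.16. After adjustment over the 21 pairs 2 were called by Pearson's r and none by Spearman's rho. Pdgfrb and Rgs5 had r = 0.90 (exact permutation p = 0.00258, adjusted 0.0331) and rho = 0.79 (exact permutation p = 0.0279, adjusted 0.147). Abcc9 and Cspg4 had r = 0.97 (exact permutation p = 0.00315, adjusted 0.0331) and rho = 0.69 (exact permutation p = 0.0694, adjusted 0.182). Without the 2 libraries farthest from the first gene's median both values were lower. For Pdgfrb and Rgs5 r was 0.53 without mutant replicate 2 and wild-type replicate 2. For Abcc9 and Cspg4 it was 0.45 without mutant replicate 3 and wild-type replicate 2. Leaving out extreme libraries narrows the range, which lowers r in itself, so no conclusion is drawn from the drop. Without wild-type replicate 2 alone r was 0.81 for Pdgfrb and Rgs5 and 0.85 for Abcc9 and Cspg4. As deviations from the mean of each genotype the same pairs had r = 0.90 and r = 0.95. Each title form held 4 libraries, too few for a value within a form.

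The channel subunits were not among the closely related pairs (r = 0.47, exact permutation p = 0.255, adjusted 0.357, rho = 0.43, exact permutation p = 0.299, adjusted 0.524), and without mutant replicate 2 and wild-type replicate 2 their r was -0.11. Per length of exon, Abcc9 stood at 2.26, 3.57, 3.30 and 2.63 times the level of Kcnj8 in mutant replicates 1 to 4 and at 2.13, 1.97, 3.18 and 2.13 times in wild-type replicates 1 to 4. The ratio was above 3 in mutant replicates 2 and 3 and wild-type replicate 3, which hold 2 numbers in the title, and lowest in wild-type replicate 2, which does too. Its means of 2.94 ± 0.604 in mutant and 2.35 ± 0.557 in wild-type libraries (SD, n = 4 each) did not pass the test (two-sided exact permutation p = 0.171, adjusted over 6 ratios 0.514). For Rgs5 over Pdgfrb the ratio per length was 2.03 ± 0.294 in mutant and 2.01 ± 0.322 in wild-type libraries (SD, n = 4 each, exact permutation p = 0.943, adjusted 1.0). With 4 against 4 libraries the smallest p that such a test can give is 0.0286.

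Per kilobase of exon, Rgs5 was the highest member in both genotypes, at 44.8 ± 9.84 CPM per kilobase in mutant and 40.4 ± 11.3 in wild-type libraries (SD, n = 4 each). Pdgfrb came next, at 21.98 ± 3.32 in mutant and 19.8 ± 2.80 in wild-type libraries, followed by Abcc9, at 7.57 ± 0.945 in mutant and 6.14 ± 1.46 in wild-type libraries. The ranges of these 3 genes and that of Notch3 below them did not overlap in either genotype. Notch3 averaged 3.11 CPM per kilobase in mutant and 2.79 in wild-type libraries, and Kcnj8 2.65 in mutant and 2.65 in wild-type libraries, with overlapping ranges in both genotypes. The lowest were Cspg4, at 1.84 in mutant and 1.41 in wild-type libraries, and Higd1b, at 1.71 in mutant and 1.62 in wild-type libraries. These 2 overlapped each other, and their order differed between the genotypes.

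The genotypes were also compared within each form of title, with 2 libraries a genotype. Among libraries with 1 number in the title the log2 fold changes were 0.16 for Pdgfrb, 0.24 for Notch3, 0.19 for Rgs5, -0.076 for Kcnj8, 0.11 for Abcc9, 0.38 for Higd1b and 0.20 for Cspg4. Among libraries with 2 numbers they were 0.14 for Pdgfrb, 0.071 for Notch3, 0.095 for Rgs5, 0.11 for Kcnj8, 0.50 for Abcc9, -0.19 for Higd1b and 0.55 for Cspg4. The larger values of Abcc9 and Cspg4 in the second form include wild-type replicate 2 among 2 wild-type libraries. The difference between the forms did not pass for any of the 7 members (edgeR interaction, adjusted p = 1.0 for each, lowest unadjusted p = 0.165 for Higd1b), against 0.0795% of all genes called.

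The other genes of the PDGF pathway gave 5 positive and 0 negative log2 fold changes among 5 tested, with 0 called and a median of 0.32. Without wild-type replicate 2 the median of these genes was 0.23, with 4 positive. Pdgfb, which encodes the ligand that endothelium presents to pericytes, stood at 11.9 ± 1.28 CPM in mutant and 11.8 ± 2.32 CPM in wild-type libraries (SD, n = 4 each, log2 fold change 0.015, SE 0.16). The values with the smallest unadjusted p were those of Pdgfd, which encodes another ligand of PDGFRβ (log2 fold change 0.43, SE 0.15, edgeR adjusted p = 0.907), and of Pdgfra, the receptor of fibroblasts and oligodendrocyte precursors (0.32, SE 0.13, adjusted p = 0.924). Pdgfc, a ligand of PDGFRα, had 0.36 (SE 0.15, adjusted p = 0.924), and Pdgfa 0.06 (SE 0.092).

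Of the other Notch receptors and the Notch ligands, 7 of 8 were tested, with 5 positive, 2 negative and 0 called, and a median of 0.053 (0.0065 without wild-type replicate 2). Jag1, a ligand that activates Notch3 in mural cells, stood at 21.4 ± 0.796 CPM in mutant and 21.7 ± 1.55 CPM in wild-type libraries (SD, n = 4 each), and the endothelial receptor gene Notch4 had 0.30 (SE 0.17) as its log2 fold change. Of 6 Notch target genes 5 were tested, with 4 positive, 1 negative and 0 called, and a median of 0.16. Without wild-type replicate 2 that median was 0.094, with 3 positive. Heyl, a target of Notch signalling in mural cells, stood at 36.5 ± 4.65 CPM in mutant and 34.0 ± 6.51 CPM in wild-type libraries (SD, n = 4 each). Its log2 fold change was 0.10, and -0.026 without wild-type replicate 2. For Hes1 the log2 fold change was 0.25 (SE 0.12, edgeR adjusted p = 0.925).

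Close relatives of the other members did not pass either. The second pore and sulfonylurea receptor genes of ATP-sensitive potassium channels, Kcnj11 and Abcc8, which are known from pancreatic beta cells and neurons, had -0.093 (SE 0.31) and -0.17 (SE 0.15) as log2 fold changes. Of 9 genes of the same subfamily of G protein signalling regulators as Rgs5, 6 were tested, with 4 positive, 2 negative and 0 called, and a median of 0.11 (0.036 without wild-type replicate 2). Among these Rgs4, which pericytes also express, had -0.26 (SE 0.25). The HIG1 domain genes Higd1a and Higd2a, which act in assembly of the respiratory chain, had -0.09 (SE 0.12) and 0.075 (SE 0.11).

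Of 13 other mural cell markers, 11 were positive, 2 negative and 0 called, with a median of 0.22. Gucy1b3, the β subunit of the nitric oxide receptor that relaxes mural cells, stood at 11.9, 14.7, 14.2 and 14.0 CPM in mutant replicates 1 to 4, against 11.1, 9.77, 11.9 and 11.5 CPM in wild-type replicates 1 to 4. The genotypes did not overlap for this 1 of the 13 genes (2.69% of all genes), although mutant replicate 1 and wild-type replicate 3 were nearly equal (log2 fold change 0.31, SE 0.11, edgeR adjusted p = 0.924). For Mcam, the adhesion molecule CD146, the log2 fold change was 0.29 (SE 0.12, adjusted p = 0.924). The 2 negative markers were Vtn (log2 fold change -0.058, SE 0.23) and Anpep (-0.033, SE 0.13). Among 13 genes of pericyte recruitment and vessel stabilisation 11 were positive, 2 negative and 0 called, with a median of 0.17. Foxc1 and Foxf2, transcription factor genes needed for pericyte development in the mouse brain, had 0.35 (SE 0.13, adjusted p = 0.924) and 0.66 (SE 0.28, adjusted p = 0.924) on the log2 scale. Without wild-type replicate 2 the median was 0.11 for the mural markers and 0.12 for the recruitment genes.

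Contractile genes of vascular smooth muscle, the other mural cell type, did not all lie on one side. Of 12 tested, 4 were positive, 8 negative and 0 called, with a median of -0.15. Among the positive ones, Myh11, the smooth muscle myosin heavy chain, had a log2 fold change of 0.30 (SE 0.14, edgeR adjusted p = 0.925) and Des, desmin, had 0.12 (SE 0.13). Tagln, an actin-binding protein, stood at 16.8, 22.1, 20.7 and 23.1 CPM in mutant replicates 1 to 4, against 24.9, 30.2, 28.6 and 29.8 CPM in wild-type replicates 1 to 4, without overlap (log2 fold change -0.46, SE 0.12, edgeR adjusted p = 0.815). Cnn1, calponin, had 1.09 ± 0.182 CPM in mutant and 1.64 ± 0.182 CPM in wild-type libraries (SD, n = 4 each, log2 fold change -0.59, SE 0.22, adjusted p = 0.924). The groups did not overlap for 3 of the 12 genes, Tagln, Cnn1 and the myosin light chain gene Myl9 (log2 fold change -0.17), against 2.69% of all genes tested. Whether pericyte and smooth muscle genes differ in their response was not tested.

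**Figure D4:**
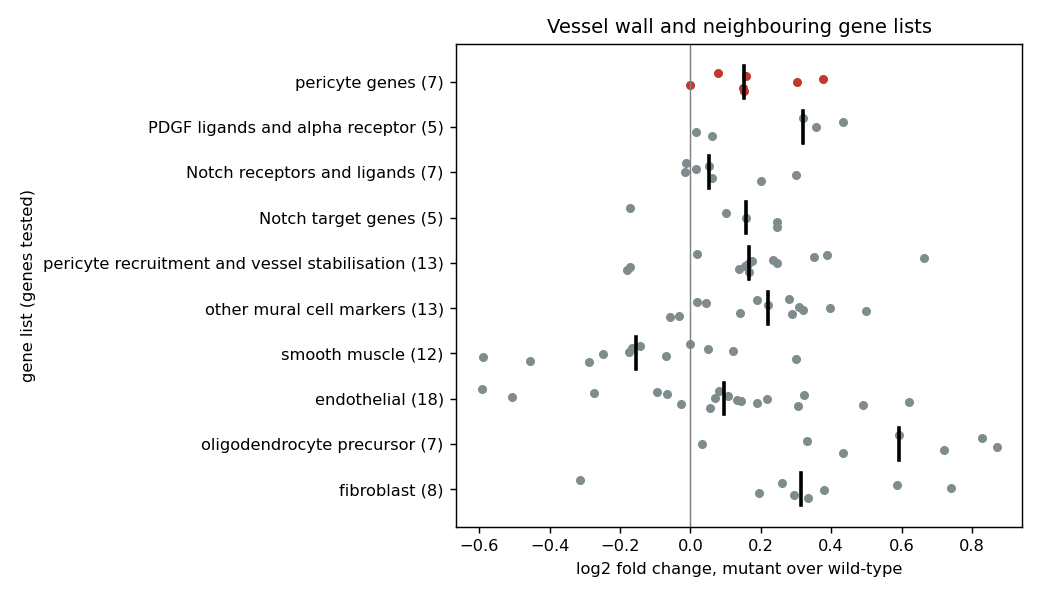
Log2 fold change of mutant over wild-type (x axis) for each tested gene of the pericyte list and of 9 related lists (rows, number of genes tested in brackets), with the median of each list as a bar. The pericyte median is 0.15, the smooth muscle median -0.15, and no point shown passed the threshold.

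Endothelial genes, the other partner of the capillary wall, gave 12 positive and 6 negative values among 18 tested, with 0 called and a median of 0.09. Without wild-type replicate 2 the endothelial median was 0.031, with 10 positive. As the mean of log2 CPM centred per gene, the pericyte genes stood at 0.17, -0.17, 0.20 and 0.18 in mutant replicates 1 to 4, and at 0.084, -0.44, 0.064 and -0.081 in wild-type replicates 1 to 4. The endothelial genes stood at 0.088, -0.21, 0.0043 and 0.25 in mutant replicates 1 to 4 and at 0.16, -0.25, 0.015 and -0.04 in wild-type replicates 1 to 4. Replicate 2 was lowest in each genotype on both scales. The difference of the 2 means, pericyte minus endothelial, was 0.062 ± 0.108 in mutant and -0.062 ± 0.0954 in wild-type libraries (SD, n = 4 each), and its ranges overlapped.

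**Figure D5:**
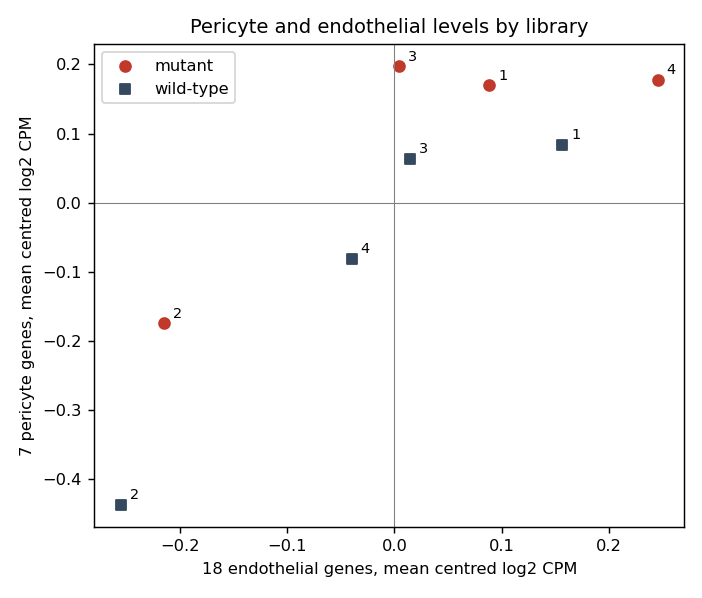
Mean centred log2 CPM of the 7 pericyte genes (y axis) against that of 18 endothelial genes (x axis), with 1 point per library, numbered by replicate. Replicate 2 of each genotype lies at the lower left, at -0.17 (mutant) and -0.44 (wild-type) for pericyte genes.

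Cells that also express some members were represented in the tissue. All 7 genes of oligodendrocyte precursors, which carry NG2, were positive, with a median log2 fold change of 0.59 (0.79 without wild-type replicate 2) and 0 called. Their summed level was 147 to 197 CPM in mutant and 110 to 157 CPM in wild-type libraries. The leading values were those of Gpr17, a receptor of committed precursors (log2 fold change 0.87, SE 0.31, edgeR adjusted p = 0.918), and Neu4 (0.83, SE 0.39, adjusted p = 0.924). Cartilage genes, of which 4 were tested, had 3 positive values and 0 called, with a median of 0.30 (0.16 without wild-type replicate 2), and Col2a1 stood at 3126 ± 1583 CPM in mutant and 1841 ± 940 CPM in wild-type libraries (SD, n = 4 each, log2 fold change 0.76, SE 0.53). Among 8 fibroblast genes 7 were positive and 0 called, with a median of 0.31 (0.18 without wild-type replicate 2). For 1 of the 8, Fbln1, the genotypes did not overlap, against 2.69% of all genes tested (log2 fold change 0.59, SE 0.12, adjusted p = 0.472). Skeletal muscle genes, from a tissue in which Abcc9 is active, summed to 5.93 to 8.14 CPM in mutant and 5.88 to 11.9 CPM in wild-type libraries. The part of these cells in the levels of Cspg4, Pdgfrb or Abcc9 was not tested.

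Of 19376 other genes with a mean of at least 1 CPM, the 5 whose log2 CPM over the 8 libraries was most like the mean centred level of the 7 members were Sepn1, Sox4, Creb3l2, Gm26735 and Caprin1. Pearson's r with that mean lay between 0.98 and 0.99 and Spearman's rho between 0.88 and 0.98. They were chosen as the highest of all these genes, so no test applies. Sepn1 stood at 50.0, 37.8, 53.1 and 48.5 CPM in mutant replicates 1 to 4, against 45.1, 29.8, 44.9 and 38.9 CPM in wild-type replicates 1 to 4, with replicate 2 lowest in each genotype. Of the related lists, Notch4 (r = 0.98, the 16th highest) and Heyl (r = 0.97, the 44th highest) were the closest vascular genes, and the cartilage genes Lect1 (r = 0.98, the 18th) and Col2a1 (r = 0.96, the 62nd) were as close. The part of cartilage in the shared pattern was not tested.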

How the data were processed

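The authors deposited 1 file per library with whole-number counts for each gene symbol, neither normalized nor given a header. Per the labels' protocols, TRIzol and a small column kit yielded the RNA, and CORALL total RNA libraries carried unique molecular identifiers. Per the submitters' processing notes, FastQC, STAR, HTSeq and mm10 were involved, with no version stated. Annotation, strand setting and use of the identifiers were not given in the sources used here. Of the 47517 symbols, 45236 are gene names of GENCODE M21 (GRCm38), the source of coordinates, overlaps and exon lengths, and 15 are bare numbers, the mark of a spreadsheet conversion.

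Counts were tested with edgeR 4.0.16 in R 4.3.3 (trimmed mean of M-values, default expression filter, robust quasi-likelihood fit, with genotype alone in the model). The filter kept 21392 of 33027 symbols with a count, among them 7 of 7 members. Standard errors are the absolute log2 fold change over the root of F, and CPM used normalized library sizes. Levels by library and correlations used log2 CPM with a prior count of 2. Exact permutation tests used SciPy 1.17.1, and alternatives used limma 3.58.1 and DESeq2 1.42.0. The test was checked on simulated counts. The alternatives were other normalizations, filters and tools, each library left out, title form as covariate and neighbouring title numbers as a block. The members, the gene lists and the tests were chosen with earlier results of these data known. No p of a log2 fold change was therefore adjusted over the members alone. P-values of correlations and ratios were adjusted over the pairs of members or the ratios alone, and that choice limits them. Named genes were the members, related genes of their pathways, Thra, in each other list up to 2 genes with the smallest p, the 5 most alike genes and overlapping genes. Angpt2, Tgfb1, Vtn, Anpep, Myl9, Myh11, Des and Emcn fell outside this rule and were singled out after their values were seen.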

Additional observations from a re-analysis of the deposited data

Results flagged for a closer look

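Cspg4 stood at 26.8 CPM in mutant replicate 3, above the next mutant library at 20.9 CPM. The gap was 0.832 of the range of the 4 mutant libraries, just over Dixon's 95% critical value for a group of 4. It was the only such library among the 14 groups examined (7 genes in 2 genotypes), and chance flags about 1 group in 20.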

How the results depend on the processing

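Over 19 alternatives the 7 members gave 133 log2 fold changes, of which 0 passed an adjusted p of 0.05 (lowest 0.264, Pdgfrb, replicate block on neighbouring numbers of the titles). The sign changed in 10. Kcnj8 stood at 0.0016 with library totals alone, 0.0059 without a filter, 0.015 with title form as covariate, 0.0035 with the replicate block and 0.0017 with haemoglobin and mitochondrial genes left out. With each library left out in turn it lay between -0.11 and 0.15, Rgs5 between -0.015 and 0.30 and Higd1b between -0.00042 and 0.20. The median of the members stayed positive in all 19, between 0.09 and 0.25. In deviations from genotype means the correlation of Cspg4 with Higd1b turned to -0.066.

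The count of called genes over the whole table moved more. It was 68 by DESeq2 (19 higher and 49 lower), 16 by limma-voom (5 higher), 5 with title form as covariate (4 lower) and 29 with the replicate block (17 higher). Without robust estimation 5 genes were lower. Leaving out single libraries gave 6 to 14 called genes, 2 to 5 higher and 4 to 9 lower, with the 14 from the fit without mutant replicate 4.

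The pairing behind the block is an assumption. Deviations of same-numbered libraries from their genotype means correlated at 0.13, 0.25, 0.19 and -0.038, and not every library correlated best with its own number. Depth limits Higd1b most, at 24 to 35 counts per library.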

Other observations

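Among endothelial genes the 2 smallest p-values belonged to Vwf and Ly6c1, both with negative log2 fold changes, and the next gene named, Emcn, was chosen after its values were seen. Emcn, a sialomucin of capillaries and veins, stood at 66.9, 44.0, 72.2 and 58.0 CPM in mutant replicates 1 to 4, against 48.5, 26.7, 44.2 and 37.4 CPM in wild-type replicates 1 to 4 (log2 fold change 0.62, SE 0.21, edgeR adjusted p = 0.907). Vwf, the von Willebrand factor of larger vessels, stood at 30.03, 21.7, 19.7 and 28.6 CPM in mutant replicates 1 to 4, against 34.6, 38.7, 29.6 and 39.1 CPM in wild-type replicates 1 to 4 (log2 fold change -0.51, SE 0.16, adjusted p = 0.907). Ly6c1, a surface protein of endothelial cells, stood at 9.97, 16.8, 9.79 and 14.9 CPM in mutant replicates 1 to 4, against 20.4, 21.6, 16.3 and 19.3 CPM in wild-type replicates 1 to 4 (log2 fold change -0.59, SE 0.19, adjusted p = 0.907). The genotypes overlapped for each of these genes, and none passed the threshold in the main test. With the replicate block, whose pairing is assumed and which called 29 genes, Emcn had an edgeR adjusted p of 0.0497.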
